A study of Homo sapiens with 2 samples.

Results

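The high mobility group (HMG) genes described here encode small, abundant chromatin proteins of the HMGA, HMGB and HMGN families. The 10 genes are HMGA1, HMGA2, HMGB1, HMGB2, HMGB3 and HMGN1 to HMGN5, taken by symbol from a table that gave 17912 distinct entries. Each had a single row. The members were chosen by measured values of these libraries, the high level of HMGA1 and the difference of HMGN5 between the libraries, so levels and that difference are given as descriptions without a test, with intervals that show counting error. The RNA was that of U2OS, a human line established from an osteosarcoma, grown without synchronisation in 0.3 µM aphidicolin, an inhibitor of the replicative DNA polymerases, for 18 h. The only group was this treated one, with 2 libraries. No untreated library was analysed here, so every value is a level and none is a response to the drug. The labels do not name separate cultures, and the spread between the libraries may be technical.

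HMG proteins bind DNA or nucleosomes and change how tightly chromatin is packed. HMGA proteins hold AT-hooks that grip the minor groove of AT-rich DNA, HMGB proteins bend DNA with a pair of HMG boxes and end in an acidic tail, and HMGN proteins bind the nucleosome core itself. HMGA1 and HMGA2 are high in embryonic tissue and in many tumours, HMGB1 and HMGB2 bend DNA for transcription and repair factors, and HMGN proteins compete with the linker histone H1 for chromatin.

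The motifs that define the families are shown first, read from GENCODE 29 transcripts on GRCh38. HMGA1 and HMGA2 each had 3 AT-hooks. The capitals in the lines below mark the 4 codons of the arginine-glycine-arginine-proline core, and all 6 hooks lie on the + strand.
HMGA1 AT-hook 1 (chr6:34240847-34240876): aagcggggcCGGGGCAGGCCGcgcaagcag
HMGA1 AT-hook 2 (chr6:34242739-34242768): aagagacctCGGGGCCGACCAaagggaagc
HMGA1 AT-hook 3 (chr6:34243489-34243518): aggaaaccaAGGGGCAGACCCaaaaaactg
HMGA2 AT-hook 1 (chr12:65825346-65825375): aagagaggaCGCGGCCGCCCCaggaagcag
HMGA2 AT-hook 2 (chr12:65828025-65828054): aagagacccAGGGGAAGACCCaaaggcagc
HMGA2 AT-hook 3 (chr12:65838540-65838569): aaacggccaAGAGGCAGACCTaggaaatgg

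All 5 HMGN genes held a single copy of the invariant nucleosome-binding core. Its 8 codons are printed in full, as the stretch that makes these genes one family.
HMGN1 (chr21:39348422-39348445, - strand): AGGAGATCGGCGCGGTTGTCAGCT
HMGN2 (chr1:26473709-26473732, + strand): AGAAGATCCGCGAGGTTGTCTGCT
HMGN3 (chr6:79208547-79208570, - strand): AGACGGTCTGCCAGATTGTCAGCG
HMGN4 (chr6:26545273-26545296, + strand): AGGAGATCAGCTCGGTTGTCTGCT
HMGN5 (chrX:81118730-81118753, - strand): AGAAGATCTGCCAGGTTGTCTGCT

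The HMGB genes ended in unbroken runs of glutamate and aspartate codons. The run had 30 codons in HMGB1, 22 in HMGB2 and 20 in HMGB3, each ending at the last codon before the stop.
HMGB1 tail (chr13:30461360-30461449, - strand): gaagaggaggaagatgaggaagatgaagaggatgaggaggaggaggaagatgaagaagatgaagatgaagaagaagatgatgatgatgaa
HMGB2 tail (chr4:173332083-173332148, - strand): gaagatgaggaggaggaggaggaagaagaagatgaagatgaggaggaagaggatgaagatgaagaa
HMGB3 tail (chrX:150987852-150987911, + strand): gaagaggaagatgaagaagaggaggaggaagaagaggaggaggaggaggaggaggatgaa

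HMGN5 had the longest coding sequence of its family, 849 bases against 273 to 303 bases in HMGN1 to HMGN4. Acidic codons made up 36.2% of HMGN5 codons, against 12.2% to 19.0% in the other HMGN genes.

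The levels below are RPKM, reads scaled to exon length in kilobases and to library total, as the authors deposited them, with means ± SD (n = 2). All 10 HMG genes were at 1 RPKM or more in both libraries, a level that 66.7% of all entries reached. All 10 were also at 5 RPKM or more, beside 42.8% of all entries. The median HMG gene stood at 29.9 RPKM, and the median of all entries was 3.53 RPKM. Together the 10 genes took 0.209% of the reads in replicate 1 and 0.213% in replicate 2, or 27610 and 27673 reads.

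HMGA1, an architectural factor of tumour cells (ENSG00000137309.19, chr6:34236873-34246231, + strand), was the highest. It had 444 RPKM in replicate 1 and 478 RPKM in replicate 2, a mean of 461 ± 23.8 RPKM. These rested on 13667 and 14474 reads. It ranked 17 of 17912 entries, with 16 genes above it. HMGA1 alone made up 59.1% of the summed RPKM of the family (57.7% in replicate 1 and 60.4% in replicate 2).

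HMGA2, its paralog (ENSG00000149948.13, chr12:65824131-65966295, + strand), was the lowest. It had 7.49 and 7.24 RPKM in replicates 1 and 2, a mean of 7.36 ± 0.18 RPKM from 1526 and 1452 reads. The ratio of HMGA1 over HMGA2 was 59.3 in replicate 1 and 66.0 in replicate 2 on the RPKM scale. It rested on the length given to HMGA2, since the ratio was 19.6 ± 1.5 by the longest and 20.9 and 23.2 (replicates 1 and 2) by the shortest principal transcript, the isoforms annotated as main, and 9.46 ± 0.72 in CPM, reads scaled to library total alone. On the RPKM scale HMGA2 stood at percentile 64.7 of all entries.

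**Figure D1:**
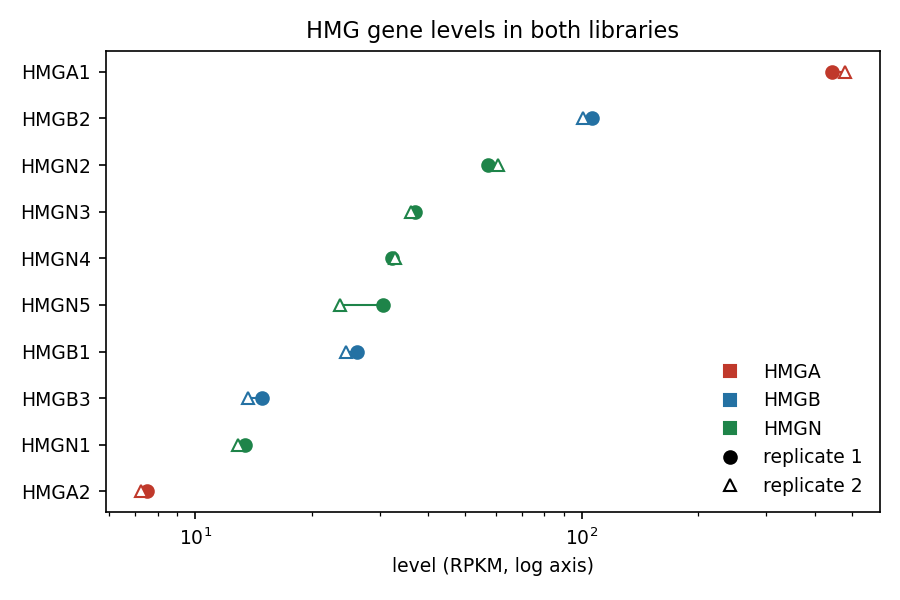
Level of each HMG gene on a logarithmic RPKM axis, with filled circles for replicate 1, open triangles for replicate 2 and colours for the families. HMGA1 stands alone at 444 and 478 RPKM, HMGA2 is last at 7.49 and 7.24 RPKM, and HMGN5 shows the widest gap between its points.

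Among the HMGB genes, HMGB2, a DNA-bending protein known from dividing cells (ENSG00000164104.11, chr4:173331695-173335125, - strand), led with 106 RPKM (replicate 1) and 101 RPKM (replicate 2). Its mean of 103 ± 3.5 RPKM was second in the family, at percentile 98.6. HMGB1, the ubiquitous member that can also act as an alarm signal outside cells (ENSG00000189403.14, chr13:30456704-30617597, - strand), had 26.1 and 24.5 RPKM. HMGB3, known from blood stem cells in the mouse (ENSG00000029993.14, chrX:150980509-150990775, + strand), had 14.9 and 13.7 RPKM. The RPKM of the 3 genes did not overlap with each other, with HMGB2 at 4.08 ± 0.044 times HMGB1 and HMGB1 at 1.77 ± 0.022 times HMGB3. HMGB2 was 1.58 ± 0.017 times HMGB1 by the shortest principal transcripts and 1.27 ± 0.014 times in CPM, and HMGB1 was 3.49 ± 0.043 times HMGB3 in CPM.

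Among the HMGN genes, HMGN2 (ENSG00000198830.10, chr1:26472450-26475972, + strand) led with 57.1 RPKM (replicate 1) and 60.7 RPKM (replicate 2). HMGN3, first known as a partner of the thyroid hormone receptor (ENSG00000118418.14, chr6:79201245-79234738, - strand) had 37.1 and 36.2 RPKM, and HMGN4 (ENSG00000182952.4, chr6:26538405-26546254, + strand) had 32.3 and 32.8 RPKM. HMGN5 (ENSG00000198157.10, chrX:81113701-81201942, - strand), whose long acidic tail sets it apart, had 30.7 and 23.8 RPKM. HMGN1 (ENSG00000205581.10, chr21:39342315-39349647, - strand), the best studied nucleosome-binding member beside HMGN2, was lowest of the HMGN genes at 13.5 and 12.9 RPKM. HMGN2 was thus 4.46 ± 0.33 times HMGN1 on the RPKM scale, and 2.82 ± 0.21 times in CPM. HMGN5 was 2.05 ± 0.31 times HMGN1 on the RPKM scale, but 0.633 ± 0.095 times by the longest principal transcripts. HMGN5 was then lowest of the HMGN genes, and HMGN3 was lowest in CPM.

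From high to low the order of mean RPKM was HMGA1, HMGB2, HMGN2, HMGN3, HMGN4, HMGN5, HMGB1, HMGB3, HMGN1 and HMGA2. Of the 9 pairs of neighbours only HMGN5 and HMGB1 overlapped between the libraries, so their places could not be told apart. HMGB3 and HMGN1 stood close, with a ratio of means of 1.08, but their values did not overlap. With 2 libraries, lack of overlap is a weak criterion.

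**Figure D2:**
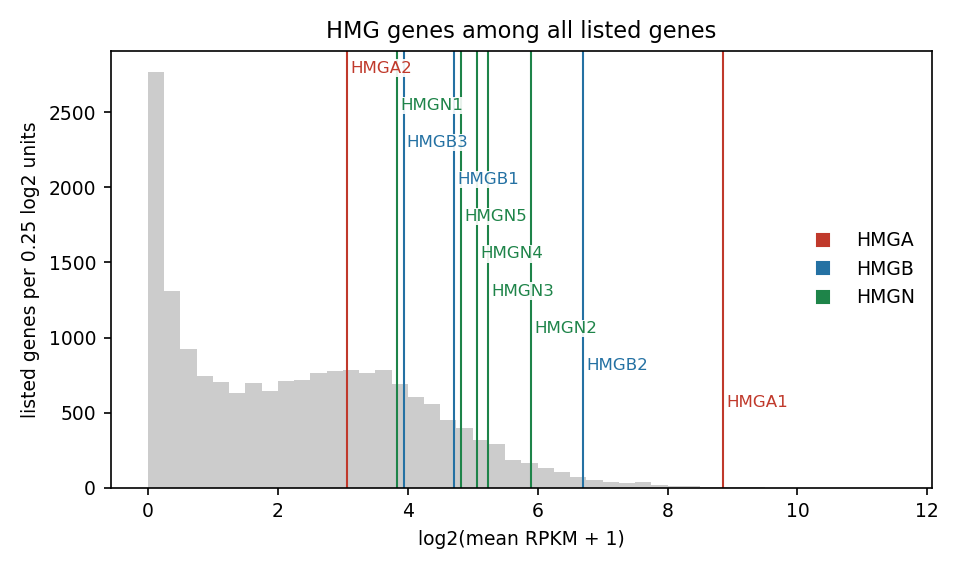
Histogram of log2(mean RPKM + 1) over the 17912 entries in bins of 0.25, with a vertical line for each HMG gene. All 10 lines lie to the right of the median of all entries (3.53 RPKM), and HMGA1 lies in the far right tail.

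The order depended on the length that divided the reads. RPKM divides by all exonic bases of a gene, and the length recovered from the deposited values was 15403 bases for HMGA2 and 5042 for HMGN1. Their principal transcripts in GENCODE 29 are 4473 and 1383 bases long. In CPM per kilobase of the longest principal transcript, HMGA2 stood at 25.4 ± 0.61 and HMGN1 at 48.2 ± 1.4, which moved HMGN1 up to place 5. HMGN2 then stood at 158 ± 6.8 and HMGB2 at 131 ± 4.5, so these genes changed places. Their recovered lengths were 3189 bases for HMGN2 and 2401 for HMGB2, against 2509 and 2775 exonic bases in GENCODE 29. Their reads and the transcript lengths may thus rest on different annotations, which was not tested.

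HMGB1 has principal transcripts of 1282 to 5485 bases. Divided by the longest it stood at 35.5 ± 1.6, and divided by the shortest at 152 ± 6.8, against 25.3 ± 1.1 RPKM as deposited. HMGB3 was at 15.7 ± 0.90 and 68.9 ± 3.9 in the same way, since its principal transcripts run from 812 to 3560 bases. Which isoforms the cells used was not measured. HMGA1 was highest under every length tried, with 497 ± 25.7 and 559 ± 28.9 by its longest and shortest principal transcripts. In CPM, with no division by length, HMGA2 stood at 113 and took place 5, while HMGN3 stood at 37.1 and came last.

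**Figure D3:**
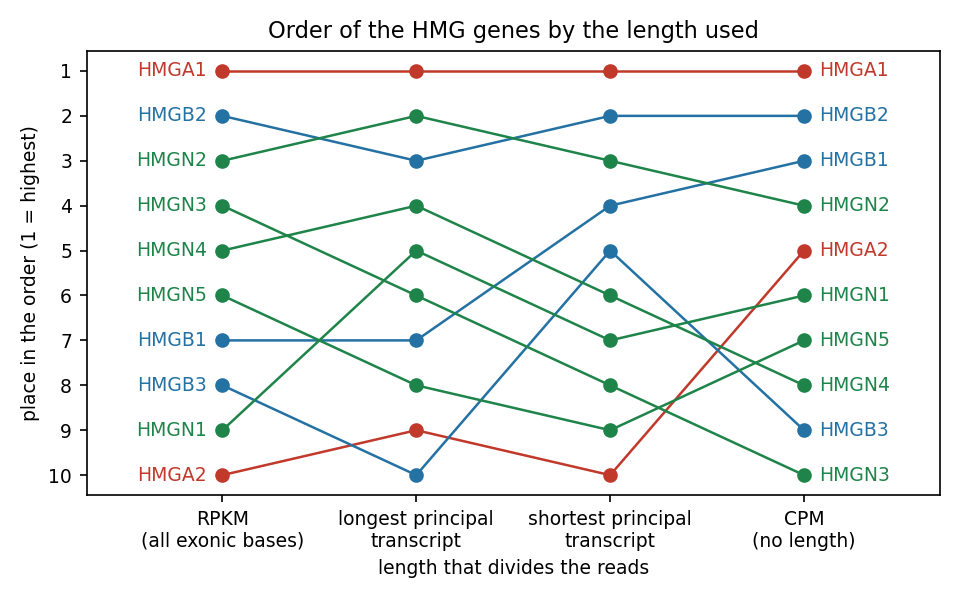
Place of each HMG gene in the order of levels (1 is highest) when reads are divided by all exonic bases, by the longest or shortest principal transcript, or by no length. HMGA1 keeps place 1 throughout, HMGN1 moves between places 9 and 5, and HMGA2 moves between places 10 and 5.

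The libraries differed little for most HMG genes. HMGN5, chosen for its difference, was counted with 969 reads (replicate 1) and 739 reads (replicate 2). With replicate 1 on top, its log2 ratio was 0.37 (95% exact binomial interval 0.23 to 0.51, which covers counting error only). Its SD was 17.9% of its mean. HMGA1 had a log2 ratio of -0.11 (interval -0.14 to -0.07), with the higher value in replicate 2. HMGN2 at -0.09 (interval -0.17 to -0.01) and HMGB1 at 0.09 (interval 0.01 to 0.17) followed. For the other 6 genes the interval held 0. The share of all genes whose interval leaves out 0 was not counted, so this split is no result about the HMG genes.

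All 3 HMGB genes were higher in replicate 1, with log2 ratios of 0.09 for HMGB1, 0.07 for HMGB2 and 0.12 for HMGB3. In all, 7 of the 10 HMG genes were higher in replicate 1, where 52.4% of the entries at 1 RPKM or more were. Relative to the mean, the largest SD apart from HMGN5 was that of HMGB3, at 5.72%. An exact binomial test across all genes, with Benjamini-Hochberg adjustment at 0.05, called 1.26% of 15773 genes different between the libraries, and 0.469% were called higher in replicate 1. The HMG genes were chosen with this comparison known, so their calls are not given.

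**Figure D4:**
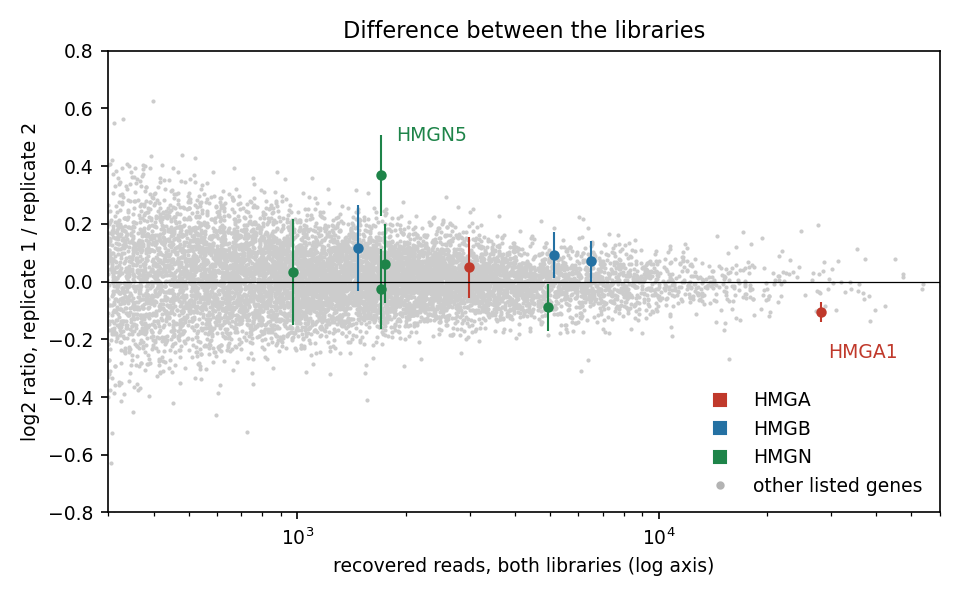
Log2 ratio of replicate 1 over replicate 2 against recovered reads of both libraries (log axis), with grey points for other listed genes and coloured points for HMG genes with 95% counting intervals. HMGN5, chosen for this difference, lies at 0.37, and HMGA1 lies at -0.11. Genes with fewer reads or larger ratios than the axes cover are not drawn.

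With 2 libraries, likeness of pattern means little more than a like level. By the distance in log2 RPKM over both, the genes nearest to HMGA1 were the glycolytic enzyme gene ENO1 at 0.10, the elongation factor gene EEF2 at 0.11 and the ribosomal protein gene RPL19 at 0.14. The nearest to HMGN5 were MFSD14B and the kinase gene MAP2K2, both at 0.11, and the receptor gene EPHA2 at 0.13.

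HMG genes have left many retroposed copies in the human genome, and reads from shared sequence can map to several places. GENCODE 29 names 154 copies of these genes. HMGB1 has 48, HMGN2 36, HMGN1 31, HMGB3 29 and HMGA1 8, while HMGB2 and HMGN3 have 1 each, and no copy had a row in the table. Windows of 50 and 100 bases of each coding sequence were looked up, exactly and on both strands, in transcripts of genes at other loci. For HMGB1, 83.3% of the 50-base windows and 56.5% of the 100-base windows occurred elsewhere. For HMGN2 these shares were 79.9% and 74.1%, and for HMGN1 56.7% and 11.8%.

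HMGA1 shared 26.9% of its coding windows at 50 bases and none at 100 bases. HMGB3 shared 24.2% and 0.794%, and HMGB2 1.72% and none. HMGA2, HMGN3, HMGN4 and HMGN5 shared no coding window of either length. The sources used here give neither the read length nor the treatment of reads that map to several places, so the levels of genes that share windows are uncertain. RPKM count reads over all exonic bases, and the shares were lower over the distinct 50-base windows of all annotated transcripts of a gene, UTRs included. These were 13.9% for HMGN2, 10.9% for HMGB1, 7.59% for HMGA1, 4.20% for HMGN1 and 3.53% for HMGB3, and under 1% for the other 5 genes. At 100 bases they were 4.08% for HMGN2 and 5.21% for HMGB1. Over the longest principal transcript, UTRs included, the 50-base shares were 34.2% for HMGN2, 18.0% for HMGN1, 15.7% for HMGB1 and 8.10% for HMGA1. HMGB3 had 3.82%, and the other 5 genes were under 1%. Over that transcript at 100 bases, HMGN2 had 11.8%, HMGB1 7.63% and HMGN1 1.87%. The part of shared sequence in the order of levels was not tested. The copies were looked up in annotated transcripts and not in a genome, so these shares are lower limits.

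**Figure D5:**
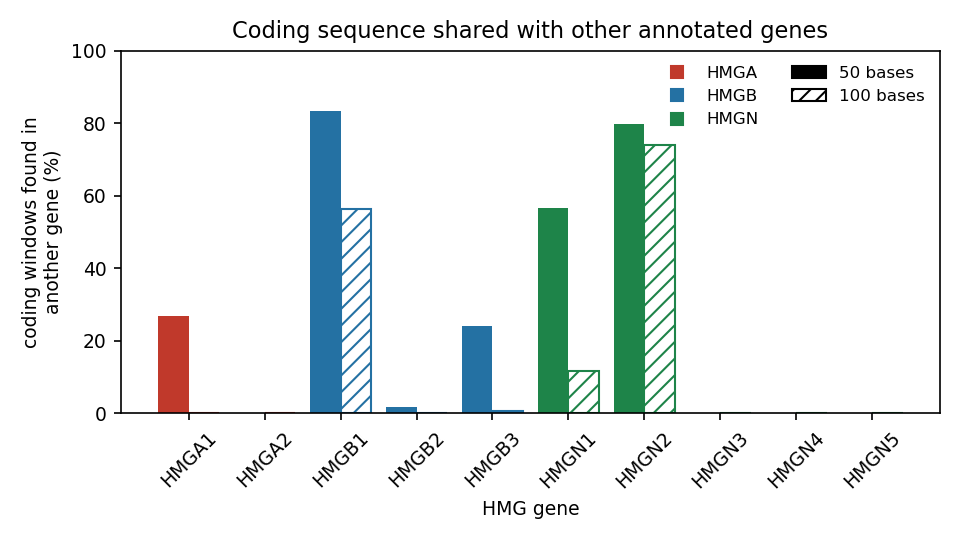
Share of 50-base (filled bars) and 100-base (hatched bars) windows of each HMG coding sequence found exactly in a gene at another locus. HMGB1 and HMGN2 stand highest at 83.3% and 79.9% of 50-base windows, and HMGA2, HMGN3, HMGN4 and HMGN5 are at 0.

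The members themselves could be told apart by such windows, since no coding window of 50 bases was shared between any of the 10 genes. Over the whole coding alignment, gaps included, the closest pair was HMGN2 and HMGN4. Their coding sequences have the same length, 273 bases, and differ at 37 of them, with 86.4% identity and a longest identical run of 20 bases. HMGN4 lies in a single coding exon, whereas the coding bases of HMGN2 are spliced, so its coordinates hold introns. Both are printed because reads from their coding bases can be told apart only by the differing bases, shown in capitals.
HMGN2 coding (chr1:26472613-26475148, + strand): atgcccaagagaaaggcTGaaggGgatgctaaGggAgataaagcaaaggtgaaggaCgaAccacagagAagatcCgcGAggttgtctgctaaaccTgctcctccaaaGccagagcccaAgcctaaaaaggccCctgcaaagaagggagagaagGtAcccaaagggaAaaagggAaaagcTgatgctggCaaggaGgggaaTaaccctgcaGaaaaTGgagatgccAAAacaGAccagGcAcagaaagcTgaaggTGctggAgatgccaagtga
HMGN4 coding (chr6:26545207-26545479, + strand): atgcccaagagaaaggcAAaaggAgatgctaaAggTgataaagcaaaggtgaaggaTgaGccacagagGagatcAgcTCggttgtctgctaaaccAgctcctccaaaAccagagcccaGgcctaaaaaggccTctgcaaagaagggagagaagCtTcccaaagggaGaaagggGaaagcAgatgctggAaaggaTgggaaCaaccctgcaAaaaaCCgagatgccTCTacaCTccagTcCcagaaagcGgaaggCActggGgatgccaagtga

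On the RPKM scale HMGN2 was 1.81 ± 0.057 times HMGN4, and in CPM 2.90 ± 0.091 times. Across the HMGB genes identity of aligned coding bases ranged from 76.9% for HMGB1 and HMGB3 to 80.2% for HMGB1 and HMGB2. HMGA1 and HMGA2 were identical at 75.4% of aligned bases, or 56.8% of the alignment with its gaps.

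Neighbours on the other strand bear on HMGN3, where 19.0% of exonic bases are shared with the antisense gene HMGN3-AS1. HMGN3-AS1 had 0.975 RPKM in replicate 1 and 1.38 RPKM in replicate 2, from 38 and 53 reads. Whether counting used strand is not given in the sources used here, so reads in the shared bases cannot be assigned. HMGA2 shares 2.49% of its exonic bases with an antisense gene. HMGA2-AS1 had 0.200 and 0.267 RPKM, and the pseudogene transcript RPSAP52 of the same locus had 2.56 and 3.28 RPKM. Of the 4 listed transcripts set beside HMGA2 for context, 3 reached 1 RPKM in both libraries, beside 66.7% of all entries. Among them were MSRB3 at 5.54 ± 0.79 and LLPH at 2.06 ± 0.19 RPKM, while WIF1 and IRAK3 were not listed. A link of these genes to HMGA2 was not tested. Neither of the 2 antisense genes reached 1 RPKM in both libraries. The other 8 HMG genes share no exonic base with another gene.

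The HMGA genes differed from the rest of the family in sites for let-7, a microRNA family that represses HMGA2 in differentiated cells. The mature sequence of let-7a from RefSeq (GRCh38.p14) is shown with its seed, bases 2 to 8, in capitals, and is followed by every match to the seed in the 3′ UTRs of the HMGA principal transcripts (letters CTACCTC, transcript strand only). The other 8 let-7 family members in that table, miR-98 among them, carry the same seed.
hsa-let-7a-5p (chr9:94175962-94175983, + strand): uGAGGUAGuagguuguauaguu
HMGA1 site (chr6:34245829-34245851): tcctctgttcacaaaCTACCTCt
HMGA2 site (chr12:65963298-65963320): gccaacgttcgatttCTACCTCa
HMGA2 site (chr12:65964533-65964555): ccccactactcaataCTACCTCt
HMGA2 site (chr12:65964945-65964967): ttgacttgcaaagacCTACCTCc
HMGA2 site (chr12:65965798-65965820): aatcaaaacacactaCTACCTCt

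HMGA2 had 4 matches in 3003 bases and HMGA1 had 1 in 1346 bases. The other 8 HMG genes had none, in 3′ UTRs of 385 bases (HMGB2) to 4653 bases (HMGB1). Among 15180 listed genes with a 3′ UTR, 9.62% held a match, and 11 genes, HMGA2 among them, held 4 or more. Beside that share, the lack of a match in the other 8 HMG genes is no result about them. Of the 2629 3′ UTRs at least as long as that of HMGA2, 25.8% held a match. A match is a description of letters and not a functional site. Mature microRNAs were not measured in these polyadenylated libraries.

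Regulators of HMGA mRNA, with the transcription factor gene MYC among them, were listed for context. Of the 8 with a row, 7 reached 1 RPKM in both libraries, beside 66.7% of all entries. LIN28B, which blocks let-7 maturation, stood at 4.86 ± 0.073 RPKM, and LIN28A was not listed. Of the mRNA-binding IGF2BP genes, IGF2BP2, a known HMGA2 target, was at 33.6 ± 0.69 RPKM, IGF2BP1 at 1.11 and 1.30 RPKM (replicates 1 and 2), and IGF2BP3 at 0.634 ± 0.045. MYC, reported to drive HMGA1, stood at 26.4 ± 0.33 RPKM, and AGO2, which carries microRNAs to their targets, at 20.5 ± 0.45 RPKM.

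Linker histones, which HMGN and HMGB proteins compete with, included H1-10 at 99.1 ± 1.5 RPKM and H1-2 at 43.5 ± 2.0 RPKM. H1-4 had 3 reads in replicate 1 and 1 in replicate 2, and H1-1, H1-3, H1-5 and H1-8 were not listed. Replication-dependent histone transcripts mostly lack a poly(A) tail, and these libraries were selected with oligo(dT). With other architectural genes, 13 of 14 listed genes of that list passed 1 RPKM, beside 66.7% of all entries. Among them were the nucleolar chaperone gene NPM1 at 217 ± 5.2 and the nucleolin gene NCL at 136 ± 3.3.

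On a list made for other HMG-box genes, 21 of the 24 with a row reached 1 RPKM in both libraries, beside 66.7% of all entries. The list median was 10.3 RPKM. Both values include CAPN15, a calpain gene without an HMG box, at 8.49 RPKM, and the list held no SOX gene. The FACT subunit gene SSRP1 led at 68.1 ± 2.4 RPKM, followed by HMGXB4 at 41.0 ± 0.088 and the ribosomal RNA factor gene UBTF at 33.7 ± 1.2. TCF7 at 0.0378 ± 0.011 (4 and 6 reads), TOX3 at 0.338 ± 0.11 and SMARCE1 at 0.890 ± 0.095 (201 and 230 reads) were below 1 RPKM. The testis gene HMGB4 was not listed. SMARCE1 had more reads than TOX, which passed with 58 and 60 reads, because RPKM also divides by exonic length. HMGA1 and HMGB2 alone were above all of these genes on the RPKM scale.

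All 11 listed partners of HMGB proteins passed 1 RPKM in both libraries, beside 66.7% of all entries. They were led by the acidic chaperone gene ANP32B at 202 ± 0.97 RPKM, the repair nuclease gene APEX1 at 159 ± 5.3 and SET at 108 ± 2.8. TREX1 was not listed, and the counts cover only genes with a row. Of 14 enzymes that modify HMG proteins 13 passed, led by the mitotic kinase gene CDK1 at 68.8 ± 4.3, PRMT1 at 44.1 ± 1.0 and RPS6KA4 at 37.6 ± 0.52. RPS6KA5 was below at 0.343 ± 0.019, from 132 and 120 reads. Receptors and partners of extracellular HMGB1 were low. TLR4 at 3.37 ± 0.16 and AGER at 2.59 ± 0.31 passed, the other 4 listed genes, HAVCR2, THBD, TREM1 and CXCL12, lay between 0.510 and 0.0690 RPKM, and TLR2, TLR9, CXCR4 and CD24 were not listed.

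Markers of cell types are given as a description. A level of 1 RPKM, which 66.7% of all entries reached, cannot identify a line. All 6 osteosarcoma and mesenchymal markers passed 1 RPKM, from RUNX2 at 8.55 ± 0.18 to SPARC at 280 ± 3.7, and all 4 genes of cycling cells passed, with MKI67 at 59.7 ± 1.8. Of the other cell types, CD3D at 1.11, EPCAM at 2.28 and KRT18 at 42.6 RPKM passed, and PTPRC, CDH1, KRT5, APOA1 and the 3 endothelial markers did not.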

How the data were processed

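Polyadenylated RNA of 2 U2OS libraries was sequenced as DNA nanoballs, per the labels' protocols. The authors deposited RPKM per gene, per the file headers. Trim Galore, HISAT2 and featureCounts with hg38 and GRCh38.p13 are named in the submitters' processing notes, while the sources used here do not give versions, annotation, read length, strand use or filters. Of 18277 rows, 194 rows of 58 symbols with several rows were left out, and entries with identical values were taken once.

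Reads were recovered from ratios of the RPKM columns. Totals were 13227805 reads in replicate 1 and 13020149 in replicate 2. A ratio fixes reads up to a whole factor, which was taken so that the gene's length was a whole number of bases nearest to its exonic length in GENCODE 29. Lengths of 7 of the 10 HMG genes came within 10% of that annotation, all but HMGB2, HMGN2 and HMGN4. RPKM do not depend on this step, but reads and CPM do. The comparison of the libraries used a 2-sided exact binomial test with trimmed mean of M values scaling on genes of at least 10 reads. It was tried on simulated reads that had set fold changes and counting error only. The simulation recovered reads with the same lengths it was made from, so lengths that differ from the annotation were not tried.

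The members and lists were chosen with earlier results of these data known. The text names all 10 members, the 3 highest and up to 3 lowest or not listed genes of each list, and the 3 genes most like HMGA1 and HMGN5. Further genes are named where a sentence compares them or gives a limit of a list. A gene that this rule would name is not reported here. Principal transcripts are those tagged by APPRIS in GENCODE 29. Intervals cover counting error only. Alternatives covered level, scaling, pseudocount, filter, length and each library alone. The software was Biopython 1.88, matplotlib 3.10.9, pandas 2.3.3, scipy 1.17.1, numpy 2.4.6 and Python 3.11.15.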

Additional observations from a re-analysis of the deposited data

How the results depend on the processing

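All 10 HMG genes stayed expressed at 0.5 RPKM, 5 RPKM, 1 CPM and in each library alone. The share of HMGA1 in the summed HMG level (59.1%) was 50.9% in CPM, and 57.7% to 60.4% with a replicate left out. It was 47.9% and 40.4% by the longest and shortest principal transcripts, which were added after seeing the data, as were the comparisons of orders and of pair ratios. Of the 10 genes, 2 kept their place in CPM, 2 by the longest and 4 by the shortest principal transcript, and 8 or 10 with a replicate left out. HMGN5 and HMGB1 changed places without replicate 1. The median HMG level (29.9 RPKM) was 139 in TPM, a different unit. At 5 RPKM the HMGB1 receptors and the transcripts set beside HMGA2 fell to 0, and the antisense genes numbered 1 at 0.5 RPKM, against 0 at 1 RPKM. Without a replicate, that antisense count was 0 to 1. The 198 genes called different numbered 114 at 0.01 and 18 with a 1.5-fold limit, by construction of stricter limits. Of 30 alternatives for the log2 ratios, none changed direction, which was fixed in advance. The scalings shifted every ratio by a constant smaller than any HMG ratio, and a pseudocount keeps the sign. The cause of the other changes was not tested. Low read numbers limit precision for the genes of few reads, among them H1-4, TCF7, CXCL12, TREM1, THBD and HMGA2-AS1. No paired analysis was possible because the series holds a single group.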
